A study of Homo sapiens with 18 samples.

Results

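The genes described here are the expressed members of the numbered ZNF family, the largest family of human transcription factors, in NIKS keratinocytes. They were chosen as the genes with a symbol of ZNF followed by a number alone and a mean of at least 3 RPKM (a read density that is corrected for gene length and for library size) over all 18 libraries. That gave 205 genes of the 394 numbered ZNF genes and the 16472 genes in the deposited table. The mean level chose them, so their levels are given as a description. ZNF30, ZNF697 and ZNF688 lay just inside the limit at means of 3.01, 3.03 and 3.05 RPKM, and ZNF45, ZNF614 and ZNF789 just outside it at 2.99, 2.97 and 2.96 RPKM. All 205 passed the filter on low values, and 13280 genes were tested in all.

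NIKS cells, skin keratinocytes that are immortal yet otherwise normal, are an established human line, grown here on a layer of irradiated J2/3T3 mouse fibroblasts. The cells were wild type (WT) or knockout (KO) for Sp100, a nuclear body protein that is itself induced by interferon. Each genotype was untreated (0 h) or kept for 12 or 48 h with 25 ng/mL of Human Interferon Alpha 2a, with 3 biological replicates in each of the 6 groups and polyA RNA as the input. The table's column names point to 1 line per genotype, so genotype and line cannot be told apart, and without untreated libraries at 12 and 48 h, time in interferon and time in culture cannot be told apart either. The labels do not say whether replicates came from separate cultures, so p-values measure the spread between these samples, which may be technical.

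Most ZNF proteins bind DNA through a row of C2H2 zinc fingers, each held together by a zinc ion and each reading a few bases. Many of them also carry a KRAB box, which recruits TRIM28 (also called KAP1) and, through it, the histone methyltransferase SETDB1 and HP1 proteins, so that the bound site is packed into silent chromatin. Retroelements are common targets, and the KRAB genes themselves lie in clusters of related copies, many of them on chromosome 19. Reads shared by near-identical copies can be split between them in ways the deposited values do not show, and whether counting used the strand is not given in the sources used here.

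SP100 read 27.9 to 31.9 RPKM in untreated WT and 14.2 to 16.0 in untreated KO. After interferon it was at 151 to 172 RPKM in WT and 86.5 to 93.2 in KO at 12 h, and at 124 to 131 in WT and 57.4 to 62.4 in KO at 48 h. The transcript of the targeted gene was therefore lower in every KO group but not absent. Within groups, libraries had a Pearson r of 0.988 to 0.991 across genes, and relative depth spanned 1.51-fold, while the number of reads is unknown. The 10 keratinocyte markers were all present, at a summed 20200 to 24800 RPKM. Of the 12 fibroblast markers 5 were in the table and 3 had a mean of at least 1 RPKM, most of the sum being VIM. Their summed level was 384 to 397 RPKM in untreated WT, 318 to 324 at 12 h and 279 to 305 at 48 h, and 261 to 266, 228 to 245 and 194 to 202 RPKM in KO, so it moved with both genotype and time. Of 6 melanocyte markers 2 were in the table, at 2.34 RPKM or less in sum. Of 6 immune markers 2 were, at 19.6 to 25.3 RPKM in untreated libraries and 35.9 to 58.9 after interferon. Their part in the results below was not tested.

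Most members were expressed at a low level. The median of their mean levels was 5.81 RPKM, and 48 of the 205 reached 10 RPKM. The 3 highest were ZNF706, a short protein with a single finger, ZNF207, which brings the checkpoint protein BUB3 to the mitotic spindle, and ZNF146, a protein made of fingers alone. ZNF706 had a mean of 173 RPKM over the 18 libraries. Untreated WT libraries gave 104 to 113 RPKM for ZNF207 and 68.6 to 74.2 for ZNF146.

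Features that the rule did not use came from GENCODE release 29. Of the 205 genes, 77 (37.6%) lie on chromosome 19, against 931 (7.24%) of the 12857 tested genes with a chromosome. Coding sequences of 204 members were translated, and 97 of them held a KRAB box pattern while 107 did not. The pattern misses divergent boxes, such as those of ZNF202 and ZNF263. Of the genes with a KRAB pattern 55 lie on chromosome 19, and of those without it 21. The median number of finger patterns was 12 with the KRAB pattern and 7 without it, and the maximum over all members was 33. A finger pattern was absent from 5 members, among them ZNF185, an actin-associated LIM protein of epithelia, and ZNF330, a nucleolar protein.

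Promoters of 172 members were matched in RefSeq (build GRCh38.p14), each running from 250 bases before the start site to 50 after it. The 6 printed here, all 5′ to 3′ on the gene's strand, are shown because they hold the letters the next paragraph counts and because their genes recur below. They were chosen after values were seen. Capitals mark matches on either strand to 1 of 2 patterns. The first is GAAA, any 2 bases and GAAA again, the core of the element through which type I interferon acts on its target genes (the interferon-stimulated response element, ISRE). The second is ACTACA, any 2 bases and TCCC, core letters of the element that ZNF143 and ZNF76 are known to bind, called the ZNF143 element here.
ZNF207 (chr17:32349907-32350206, plus strand): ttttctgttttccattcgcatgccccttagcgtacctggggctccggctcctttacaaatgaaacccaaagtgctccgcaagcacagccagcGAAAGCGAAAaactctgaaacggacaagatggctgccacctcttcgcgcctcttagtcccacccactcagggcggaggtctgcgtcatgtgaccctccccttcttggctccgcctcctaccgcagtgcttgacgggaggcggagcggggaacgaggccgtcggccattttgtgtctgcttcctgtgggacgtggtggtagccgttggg
ZNF189 (chr9:101398601-101398900, plus strand): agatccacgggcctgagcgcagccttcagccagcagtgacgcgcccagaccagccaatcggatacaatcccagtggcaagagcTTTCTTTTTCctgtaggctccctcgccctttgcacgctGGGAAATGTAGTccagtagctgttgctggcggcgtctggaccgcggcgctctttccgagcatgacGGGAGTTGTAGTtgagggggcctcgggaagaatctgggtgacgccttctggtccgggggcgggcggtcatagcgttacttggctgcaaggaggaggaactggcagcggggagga
ZNF268 (chr12:133181245-133181544, plus strand): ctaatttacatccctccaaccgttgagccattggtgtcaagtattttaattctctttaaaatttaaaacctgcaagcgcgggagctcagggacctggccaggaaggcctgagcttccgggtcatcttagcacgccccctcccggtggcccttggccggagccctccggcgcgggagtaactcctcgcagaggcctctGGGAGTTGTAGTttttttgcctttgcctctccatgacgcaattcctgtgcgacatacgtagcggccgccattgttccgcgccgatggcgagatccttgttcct
ZNF140 (chr12:133080673-133080972, plus strand): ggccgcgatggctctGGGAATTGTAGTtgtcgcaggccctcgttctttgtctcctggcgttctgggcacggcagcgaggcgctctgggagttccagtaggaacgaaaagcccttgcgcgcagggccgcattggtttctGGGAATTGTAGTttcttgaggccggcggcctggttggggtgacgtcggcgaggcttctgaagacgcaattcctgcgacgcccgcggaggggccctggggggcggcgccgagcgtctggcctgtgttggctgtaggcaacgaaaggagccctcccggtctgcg
ZNF717 (chr3:75785500-75785799, minus strand): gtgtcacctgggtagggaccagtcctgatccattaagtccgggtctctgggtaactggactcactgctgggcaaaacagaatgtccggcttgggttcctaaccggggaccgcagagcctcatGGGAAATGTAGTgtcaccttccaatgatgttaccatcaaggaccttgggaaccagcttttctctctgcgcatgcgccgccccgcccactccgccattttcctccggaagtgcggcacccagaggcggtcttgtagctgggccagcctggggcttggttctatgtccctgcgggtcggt
ZNF358 (chr19:7515853-7516152, plus strand): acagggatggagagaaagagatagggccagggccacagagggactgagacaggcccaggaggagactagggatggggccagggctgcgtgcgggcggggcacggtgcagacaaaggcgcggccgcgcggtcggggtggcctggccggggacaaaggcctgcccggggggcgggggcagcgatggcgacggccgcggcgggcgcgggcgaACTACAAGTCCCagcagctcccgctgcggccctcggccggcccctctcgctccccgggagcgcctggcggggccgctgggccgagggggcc

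The ISRE core was found on either strand in 2 of the 172 member promoters (1.16%), those of ZNF207 and ZNF189. It was in 274 of 9654 promoters of tested genes (2.84%), in 3.65% of all 27305 promoters, and in 39 of the 70 promoters of genes at least 4-fold higher at 12 h in WT (55.7%). ZNF207 was called higher at 12 h in both genotypes, and ZNF189 in neither. A second interferon element, the GAS sequence TTCNNNGAA, was in 18 member promoters (10.5%) against 6.2% of those of tested genes. The ZNF143 element was also in 18 (10.5%) against 4.25% of tested genes and 1.96% of all promoters. Its first base lay 53 bases before the start site in ZNF268 and 41 before it in ZNF358, and ZNF140 and ZNF189 each held 2 copies. These 18 genes gave 3 higher and 6 lower calls at 12 h in WT, 0 and 7 in KO, and 7 higher and 0 lower from 12 to 48 h in WT. The background over all genes at 12 h was 15.1% higher with 29.8% lower for WT and 16.0% with 32.8% for KO, and from 12 to 48 h in WT it was 24.6% with 11.3%. The 6 and 7 lower calls at 12 h were thus near the share of all genes. The letters of the ZNF143 element were picked after the promoters had been read and 7 letter patterns looked at, and a match is not a bound site.

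The first comparison asked how the family responded to 12 h of interferon. In WT 27 members were called higher and 36 lower at a limma adjusted p under 0.05, 30.7% of the 205, against 44.9% of all 13280 genes (15.1% higher and 29.8% lower). In KO 22 were higher and 42 lower, 31.2% against 48.8% (16.0% higher and 32.8% lower). Among all tested genes with a mean of at least 3 RPKM, 49.5% were called in WT and 53.8% in KO, so the family gave a lower share of calls than genes chosen by the same level. Its changes were also measured with a somewhat larger median standard error, 0.097 on the log2(RPKM + 1) scale against 0.077 for those genes.

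The direction of the small changes depended on scaling. Median-of-ratios scaling moved the median log2 change of all genes from -0.085 to -0.003 (WT) and from -0.095 to -0.001 (KO). With it 39 members were higher and 23 lower in WT, and 34 were higher and 28 lower in KO. No share of all genes called under this scaling is given in this report, so counts under it do not set the family apart. The median over the members was 0.058 instead of -0.024 in WT, and 0.065 instead of -0.023 in KO, so its sign turned. Relative to all genes, the members' median was higher under both scalings. Changes were small: the largest rise called in WT was 1.49-fold and the largest fall 1.67-fold, and no called member reached 2-fold, a size that 2.87% of all genes passed in WT. In these bulk samples, fewer cells of a type and less RNA per cell cannot be told apart.

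**Figure D1:**
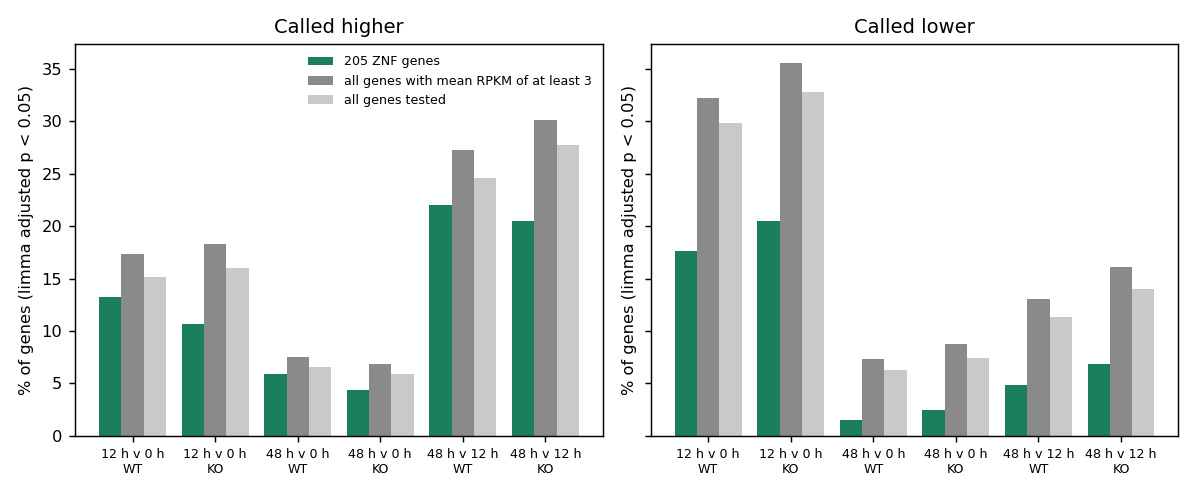
Percent of genes called higher (left) and lower (right) at a limma adjusted p under 0.05 in the 6 interferon comparisons, for the 205 ZNF genes (green), all tested genes with a mean of at least 3 RPKM (dark grey) and all tested genes (light grey). The green bars are the lowest of each trio, and the 12 h against 0 h and 48 h against 12 h comparisons have the most calls.

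Among the members higher at 12 h were genes that act on RNA and the spindle. ZNF207 read 107.39, 104.37 and 113.39 RPKM in untreated WT and 128.61, 131.14 and 130.96 at 12 h. Its untreated and 12 h libraries did not overlap in either genotype, with 105.82, 112.37 and 104.23 RPKM in untreated KO and 138.58, 137.73 and 134.51 at 12 h. Such separation was common. At 12 h it held for 42.9% of members and 53.7% of all genes in WT, and for 38.5% and 55.2% in KO. ZNF207 rose by a log2 change of 0.26 in WT and 0.35 in KO (SE 0.0469, limma adjusted p 0.000291 and 1.82e-05). By 48 h its WT values were 110.57, 98.31 and 97.74 RPKM, back at or below the untreated range.

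ZNF326, a subunit of the DBIRD complex that links RNA polymerase II elongation to splicing, was also higher at 12 h. It read 17.57, 18.84 and 19.40 RPKM in untreated WT, 25.35, 25.57 and 24.06 at 12 h and 21.54, 19.43 and 18.45 at 48 h. The rise at 12 h was 0.41 in WT and 0.44 in KO (SE 0.0783, limma adjusted p 0.000555 and 0.000229). ZNF622, a factor in the maturation of the large ribosomal subunit, read 16.04, 16.45 and 17.41 RPKM in untreated WT and 20.90, 22.26 and 20.61 at 12 h. It rose by 0.34 and 0.37 in WT and KO (SE 0.0515, adjusted p 7.64e-05 and 2.68e-05). Both genes fell again from 12 to 48 h, ZNF326 by 0.32 in WT and ZNF622 by 0.21 (adjusted p 0.00434 and 0.00522).

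ZNF200, a finger protein with no KRAB pattern, had the largest rise at 12 h in WT. Its libraries read 4.39, 3.23 and 3.12 RPKM untreated and 5.88, 5.69 and 5.83 at 12 h, a log2 change of 0.58 (SE 0.116, limma adjusted p 0.000772). In KO it rose by 0.39 (adjusted p 0.0105), a call lost without untreated KO replicate 1 (0.31, adjusted p 0.0573). ZNF268 and ZNF766, both KRAB genes, followed with rises of 0.57 and 0.49 in WT, and both read -0.01 in KO; their values are given with the genotype comparison. ZNF707, a KRAB gene on chromosome 8, was higher by 0.46 in WT and 0.49 in KO (adjusted p 0.0273 and 0.0181). Both of its calls rested on single libraries. In WT it was lost without untreated replicate 3 (0.33, adjusted p 0.131) or 12 h replicates 1 or 3, and in KO without untreated replicates 2 or 3 or 12 h replicate 3 (0.39, adjusted p 0.0823).

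Of the 36 members lower at 12 h in WT, 15 held the KRAB pattern and 21 did not. ZNF717, a KRAB gene whose promoter is printed above, read 6.80, 5.52 and 5.81 RPKM in untreated WT, 4.16, 2.81 and 2.97 at 12 h and 7.39, 7.17 and 7.31 at 48 h. In KO it read 8.55, 5.93 and 6.02 RPKM, then 3.31, 3.23 and 2.98, then 6.26, 5.98 and 7.08. All 12 h libraries lay below all others in both genotypes, though in WT the rule that named ZNF717 required this separation. The fall was 0.72 in WT and 0.89 in KO (log2 changes of -0.72 and -0.89, SE 0.126, limma adjusted p 0.000269 and 2.88e-05), and the rise from 12 to 48 h was 0.96 in WT and 0.83 in KO (adjusted p 3.07e-05 and 8.34e-05). ZNF717 has close relatives, so its reads are uncertain.

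ZNF251, a KRAB gene on chromosome 8, had the same course. It read 6.14, 5.52 and 6.50 RPKM in untreated WT, 3.58, 4.30 and 3.41 at 12 h and 6.69, 7.00 and 6.82 at 48 h. Its log2 changes at 12 h were -0.57 in WT and -0.67 in KO (SE 0.0901, limma adjusted p 0.000104 and 1.65e-05). ZNF519 went from 3.31, 3.98 and 4.04 RPKM to 1.57, 1.56 and 2.52 in WT, a change of -0.74, and changed by -0.57 in KO (SE 0.144, adjusted p 0.000627 and 0.00389). ZNF358, which has no KRAB pattern and the ZNF143 element letters close to its start, went from 11.19, 11.05 and 11.10 RPKM to 7.20, 6.88 and 7.70 in WT. Its changes were -0.55 in WT and -0.45 in KO (SE 0.112, adjusted p 0.000832 and 0.00335), and at 48 h it read 11.81, 10.18 and 10.34 RPKM in WT.

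**Figure D2:**
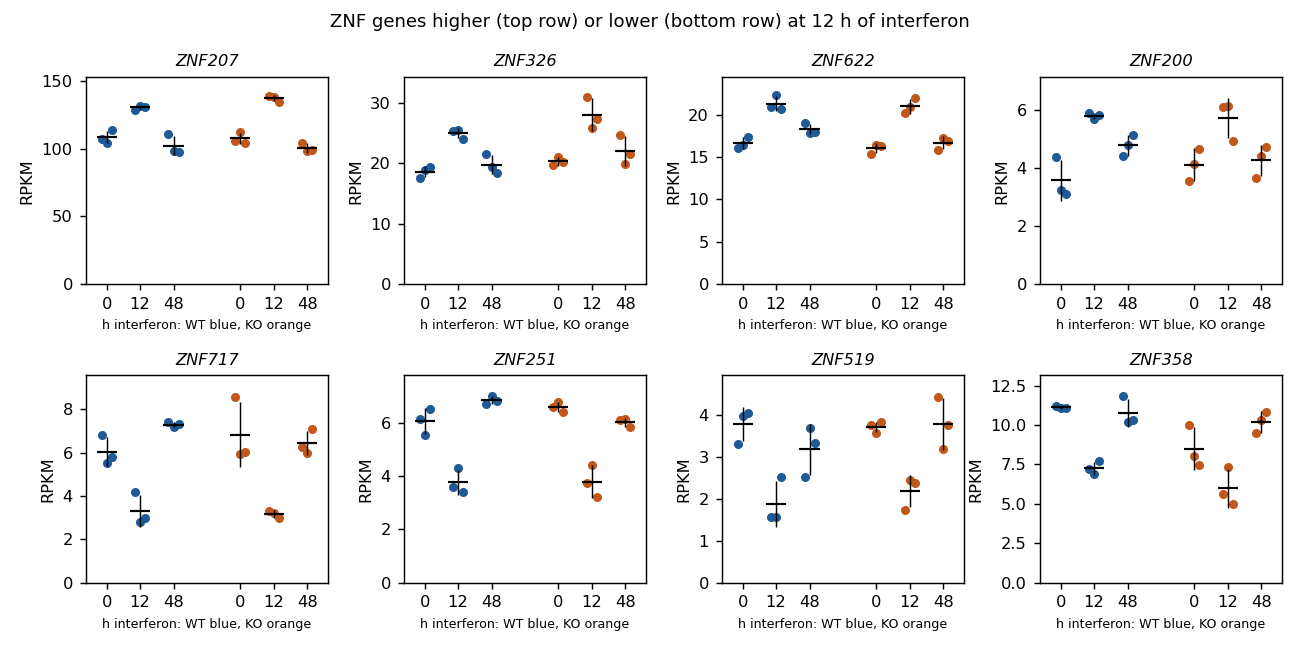
RPKM of 8 ZNF genes in each of the 18 libraries by hours of interferon, WT in blue and KO in orange, with points for libraries, horizontal bars for group means and vertical bars for SD (n = 3). The 4 genes of the top row are higher at 12 h and the 4 of the bottom row lower, and by 48 h most have returned towards the untreated level.

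At 48 h the family differed little from untreated cells. In WT 12 members were called higher and 3 lower, 7.32% against 12.8% of all genes, and in KO 9 were higher and 5 lower, 6.83% against 13.3%. The shares of all genes by direction were 6.52% higher and 6.3% lower in WT and 5.9% and 7.42% in KO. The count in KO was 7 in a fit on those libraries alone and 2 without KO replicate 2 at 48 h. Medians over the members were 0.078 in WT and 0.045 in KO, beside -0.003 and -0.012 for all genes. Among all genes with a mean of at least 3 RPKM, 14.9% and 15.7% were called.

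Of the 12 genes higher at 48 h in WT, 7 held the KRAB pattern, near its share among all members (97 of 204, 47.5%). ZNF140 read 2.99, 3.32 and 3.51 RPKM untreated, 4.29, 3.76 and 4.25 at 12 h and 4.69, 4.90 and 4.94 at 48 h, so the 3 times did not overlap. The rule that named it required this of 0 and 48 h, where 30.2% of members and 32.6% of all genes did not overlap. The log2 change at 48 h was 0.45 in WT (SE 0.0806, limma adjusted p 0.00116) and 0.17 in KO (adjusted p 0.195). ZNF274, which brings SETDB1 to the 3′ ends of other ZNF genes, read 7.32, 6.92 and 7.32 RPKM in untreated WT, 7.79, 9.52 and 8.53 at 12 h and 11.11, 8.83 and 9.93 at 48 h. It rose by 0.42 at 48 h in WT (SE 0.0785, adjusted p 0.00195) and read 0.17 in KO (adjusted p 0.175).

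ZNF226 and ZNF30 were also called at 48 h in WT, at 0.43 and 0.41 (limma adjusted p 0.0323 and 0.0265). Each call was lost when any of 5 libraries was left out, namely any untreated WT replicate and, at 48 h, replicates 2 or 3 for ZNF226 (0.34, adjusted p 0.136 without replicate 3) and replicates 1 or 3 for ZNF30 (0.36, adjusted p 0.0997 without replicate 3). ZNF592 and ZNF107 were the 2 genes higher at 48 h in both genotypes, named after their values were seen. ZNF592, a member of the Z3 chromatin complex, read 5.47, 5.62 and 5.76 RPKM in untreated WT and 7.40, 6.99 and 6.95 at 48 h. Its changes at 48 h were 0.29 and 0.35 in WT and KO (SE 0.0641, adjusted p 0.00578 and 0.00129).

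Lower at 48 h in both genotypes were ZNF185, ZNF395 and ZNF436, the only 3 members called lower in WT. ZNF185 read 16.83, 18.66 and 16.61 RPKM in untreated WT, 13.14, 12.49 and 15.14 at 12 h and 12.17, 13.36 and 14.07 at 48 h. It fell at both times, by 0.33 and 0.37 on the log2 scale in WT (SE 0.0787, limma adjusted p 0.00264 and 0.00468) and by 0.41 and 0.32 in KO (adjusted p 0.000441 and 0.013, the latter 0.0584 without KO replicate 2 at 48 h and 0.0513 without replicate 3). ZNF395, known as papillomavirus binding factor, read 23.01, 21.83 and 21.14 RPKM in untreated WT and 15.50, 17.81 and 18.02 at 48 h, a change of -0.35 (SE 0.0644, adjusted p 0.00167). ZNF436 changed by -0.28 at 48 h in WT (adjusted p 0.0163), which missed the threshold without WT replicate 1 untreated (adjusted p 0.0581) or at 48 h (0.08). In KO at 48 h ZNF395 and ZNF436 were lower by -0.24 and -0.23 (adjusted p 0.0195 and 0.0391). Those calls were lost without untreated KO replicates 1 or 2, and at 48 h without replicate 3 for ZNF395 (at most 0.091) and replicates 1 or 2 for ZNF436 (at most 0.141).

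Between 12 and 48 h in interferon, 45 members rose and 10 fell in WT, 26.8% against 35.9% of all genes, and 42 rose and 14 fell in KO, 27.3% against 41.7%. Scaling by median of ratios gave 29 and 19 in WT and 29 and 28 in KO, again without a share of all genes under that scaling beside them. The 12 and 48 h comparisons share their untreated libraries, and the 48 h against 12 h comparison shares libraries with both. Side by side, the 36 members lower at 12 h in WT comprised 32 that were not called at 48 h, 25 of them called higher from 12 to 48 h. The other members of that group were the 3 genes lower at both times and ZNF330, which was lower at 12 h and higher at 48 h. Of the 27 members higher at 12 h in WT, 6 were also called higher at 48 h and 0 lower. Such courses were not counted over all genes, of which 24.6% rose and 11.3% fell from 12 to 48 h in WT. Genes picked as lower at 12 h are favoured to rise afterwards, because both comparisons use the 12 h libraries. These counts therefore do not set the family apart. After ZNF717, the largest rises from 12 to 48 h in WT were those of ZNF226 and ZNF251, at 0.73 and 0.72 (limma adjusted p 0.000308 and 1.78e-05), and the largest falls were those of ZNF35, ZNF207 and ZNF326, at -0.37, -0.35 and -0.32.

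ZNF330 read 30.75, 32.66 and 31.94 RPKM in untreated WT, 28.65, 28.71 and 27.20 at 12 h and 36.00, 36.74 and 36.41 at 48 h. The 3 groups did not overlap. Its log2 changes were -0.17 at 12 h and 0.19 at 48 h (SE 0.0405, limma adjusted p 0.00319 and 0.00489). Median-of-ratios scaling took the 12 h change to -0.07 (adjusted p 0.17).

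Role lists drawn from known functions were then read in turn. The WT background was 15.1% of all genes called up and 29.8% called down at 12 h, and the KO background 16.0% and 32.8%. Of the 8 listed promoter-binding factors, ZNF219 alone was called at 12 h, with log2 changes of -0.5 in WT and -0.56 in KO (limma adjusted p 0.0261 and 0.0129). The WT call was lost without untreated replicate 1 (-0.41, adjusted p 0.104), 12 h replicate 1 or with the other scaling (-0.41, adjusted p 0.068), and the KO call without untreated replicates 2 or 3 or 12 h replicate 1 (adjusted p 0.0508 to 0.0599). ZNF143, which binds the element named after it, read 13.0 RPKM in untreated WT and 11.0 at 12 h as group means, a change of -0.24 (adjusted p 0.261). ZNF76, its close relative, changed by -0.19 (adjusted p 0.0838). At 48 h 0 of the 8 were called in either genotype.

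Of 10 genes listed as parts of corepressor and chromatin complexes, 9 were tested. ZNF217, an oncoprotein of the CtBP and CoREST complexes, read 16.03, 13.56 and 14.48 RPKM in untreated WT, 9.99, 10.21 and 11.81 at 12 h and 14.09, 14.94 and 16.44 at 48 h. It fell by 0.43 at 12 h in WT (log2 change -0.43, SE 0.0914, limma adjusted p 0.0013) and changed by -0.25 in KO (adjusted p 0.0309, 0.179 without untreated KO replicate 1, and over 0.05 without any of 4 other libraries). ZNF592, described above, was the only one called higher at 12 h in WT, at 0.18 (adjusted p 0.0291, lost without untreated WT replicates 1 or 2 or 12 h replicates 1 or 3, at most 0.118). ZNF687 and ZNF532, also on this list, read -0.15 and -0.01 in WT (adjusted p 0.138 and 0.966). In KO at 12 h ZNF592 was higher by 0.25 to 0.34 when 1 library was left out, with no call lost (limma adjusted p at most 0.00933). ZNF532 was also called higher there, by 0.14 to 0.3, a call lost without any of 3 libraries (at most 0.19).

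In the list of RNA, ribosome and spindle genes, 3 of 11 rose and 2 fell in WT at 12 h, where 15.1% of all genes rose and 29.8% fell. The 3 higher were ZNF207, ZNF326 and ZNF622. The 2 lower were ZNF706, at -0.15, and ZNF830, a splicing-associated protein, at -0.26 (limma adjusted p 0.0111 and 0.00934). Both lower calls were lost with median-of-ratios scaling, where the changes were -0.06 and -0.17 (adjusted p 0.31 and 0.0719), and that of ZNF706 also without WT 12 h replicate 1 (adjusted p 0.0613). ZNF598, the ubiquitin ligase that marks collided ribosomes, read -0.04 in WT at 12 h (adjusted p 0.833). In KO it was called higher at 48 h and from 12 to 48 h, by 0.26 to 0.5 and 0.22 to 0.44 with 1 library left out. At 12 h in KO ZNF346 was also higher (0.18 to 0.33) and ZNF638 lower (-0.2 to -0.12). Each of these KO calls was lost without any of 3 libraries, or any of 4 for ZNF638.

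Of 9 KRAB genes with a described target locus or element, 7 were in the table and 4 of these were members. At 12 h in WT 3 of the 7 were called higher, the members ZNF268, ZNF274 and ZNF202, and 0 lower. Of all genes 15.1% were higher and 29.8% lower there. ZNF202, known for repressing genes of lipid transport, stood at 0.36 (limma adjusted p 0.0267), and ZNF274 at 0.23 (adjusted p 0.0267). Both calls were lost without WT 12 h replicates 2 or 3 (at most 0.115 and 0.134). That of ZNF202 was also lost without untreated WT replicates 1 or 3, and that of ZNF274 without untreated WT replicate 2. ZNF91, which silences SVA retroelements, read 0.09 (adjusted p 0.631). In KO 0 of the 7 were called higher and 1, ZNF10, lower at -0.47 (adjusted p 0.00696), beside 16.0% and 32.8% of all genes. The interactions at 12 h of ZNF268, ZNF274 and ZNF202 were -0.58, -0.19 and -0.1, none of them called (limma adjusted p 0.773, 0.916 and 0.995). ZNF750, a keratinocyte differentiation factor below the level limit, was higher at 12 h in WT, from a mean of 1.60 to 2.71 RPKM (0.51, adjusted p 0.0028).

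Partners of KRAB proteins outside the family were read from a list of 23 genes, of which 22 were tested. At 12 h in WT 2 were higher and 8 lower, and in KO 4 higher and 8 lower, while scaling by median of ratios gave 2 and 4, and 5 and 4. The 8 lower made up 36.4% of the list, near the 29.8% of all genes lower in WT and 32.8% in KO. TRIM28, the KRAB corepressor itself, was higher by 0.14 in WT and 0.26 in KO (limma adjusted p 0.0258 and 0.00027). MORC2, which works with the HUSH silencing complex, was higher by 0.39 and 0.24 (adjusted p 6.34e-05 and 0.00322). CBX5, the HP1 alpha protein, was lower by 0.37 and 0.45 (log2 changes of -0.37 and -0.45, adjusted p 3.85e-06 and 3.78e-07). SETDB1 changed by -0.28 in WT (adjusted p 0.0153) and -0.03 in KO (0.836). No interaction value is given here for these partners, so a difference between genotypes cannot be read from them. Which of these calls the other scaling kept is not given either. CBX5 and HDAC1 were the 2 called at 48 h in WT, both lower, by -0.28 and -0.16 (adjusted p 0.000281 and 0.00403).

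Subgroups of the family were described without a test. Of all genes at 12 h, 15.1% were higher and 29.8% lower in WT, and 16.0% and 32.8% in KO. At 12 h in WT the 97 members with a KRAB pattern had 14 higher and 15 lower calls, and the 107 without it 13 and 21. Median-of-ratios scaling gave 18 and 12, and 21 and 11. At 48 h in WT the medians were 0.119 with the pattern and 0.035 without it, and in KO 0.044 and 0.047. On chromosome 19, 10 members rose and 7 fell in WT at 12 h, 22.1% of 77, against 17 and 29, 35.9% of the 128 elsewhere. In KO the chromosome 19 counts were 3 and 10, out of 22 and 42 over all 205 members. The 157 members between 3 and 10 RPKM had 28.0% called in WT at 12 h, beside 40.8% of all 3192 tested genes of that level.

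Related gene sets had different counts, read here beside the 15.1% of all genes higher and 29.8% lower in WT at 12 h. Of 69 tested genes of the other C2H2 families (ZFP, ZSCAN, ZKSCAN and ZBTB), 5 rose and 23 fell in WT at 12 h, with a median of -0.145, and 7 and 18 with the other scaling. The 149 tested numbered ZNF genes below a mean of 3 RPKM had 10 higher and 13 lower calls, with a median of -0.028. The 23 lower calls of the other C2H2 families were near the share of all genes, and differences between these sets were not tested. Members that are neighbours in the genome made 41 pairs, 25 of them on chromosome 19. In 18 pairs neither gene was called at 12 h in WT, in 19 pairs 1 was, and of the other 4 pairs 2 had the same direction and 2 opposite directions. ZNF251 and ZNF34 were both lower, and ZNF274 and ZNF544 both higher. ZNF707 was higher beside ZNF623, which was lower, and ZNF485 higher beside ZNF32, which was lower. In KO 1 pair had both genes called in the same direction and 1 in opposite directions. Whether neighbours shared calls more often than other members was not tested.

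The responses of WT and KO to interferon share no libraries and can be laid side by side. At 12 h, 30 members were lower in both genotypes, 83.3% of the 36 in WT and 71.4% of the 42 in KO. Higher in both were 13, 48.1% of the 27 in WT and 59.1% of the 22 in KO. No member was called in opposite directions. At 48 h, 2 were higher in both, 16.7% of the 12 in WT and 22.2% of the 9 in KO, and 3 were lower in both. From 12 to 48 h, 32 were higher in both, 71.1% of 45 and 76.2% of 42. Over all tested genes the shared calls at 12 h were 85.0% of those lower in WT and 77.1% of those lower in KO, and 82.5% and 77.9% of those higher. They were 58.4% and 64.5% of those higher at 48 h, and 79.5% and 70.6% of those higher from 12 to 48 h. The members' shares were near these for genes lower at 12 h and higher from 12 to 48 h, and below them for genes higher at 12 h or at 48 h; the difference was not tested.

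**Figure D3:**
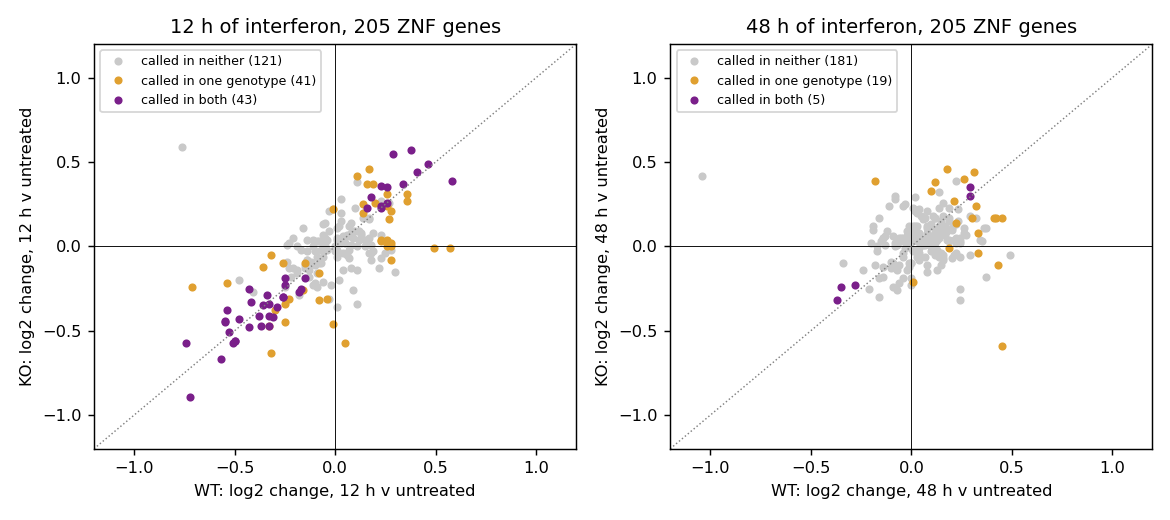
Log2 change against untreated cells in WT (horizontal) and KO (vertical) for the 205 ZNF genes at 12 h (left) and 48 h (right), with the dotted line at equal change. At 12 h 43 genes are called in both genotypes (purple), 41 in 1 (orange) and 121 in neither (grey); at 48 h these numbers are 5, 19 and 181.

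Whether the response differed between genotypes was tested by the interaction. It called 0 members at 12 h and 0 at 48 h with limma, against 0.0753% and 0.0828% of all genes (0.0678% higher and 0.0151% lower at 48 h, and 0.0753% higher at 12 h). At an unadjusted p under 0.05 there were 10 members at 12 h (4.88%, against 5.75% of all genes) and 17 at 48 h (8.29% against 6.22%). The smallest p at 12 h was that of ZNF766, whose response was lower in KO by 0.50 (interaction -0.5, SE 0.134, adjusted p 0.471). At 48 h it was that of ZNF813, a KRAB gene of a chromosome 19 cluster with close relatives, at -1.05 (SE 0.252, adjusted p 0.308). ZNF813 read 4.22, 4.80 and 3.83 RPKM in untreated WT and 6.97, 5.69 and 6.05 at 48 h. In KO it read 5.16, 8.33 and 8.67 untreated and 4.68, 3.69 and 5.09 at 48 h, so the mean was higher at 48 h in WT and lower in KO.

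KO and WT were compared at each time. The calls were few: 2 members higher and 1 lower in KO at 0 h, 0 and 4 at 12 h, and 1 and 4 at 48 h. All genes had 4.89%, 3.62% and 4.19% called at these times, with 2.82%, 1.6% and 2.03% higher and 2.07%, 2.02% and 2.16% lower. In total 10 members were called at any time, 2 of them at 2 times and 0 at all 3. These counts went to 0, 0 and 2 in fits on the 6 libraries of each comparison alone. Leaving out a library gave 1 to 5 calls at 0 h (1 without KO replicate 2), 1 to 5 at 12 h (1 without KO replicate 1) and 1 to 4 at 48 h (1 without KO replicate 3). The genotype comparisons use the same WT libraries as the WT response to interferon. A gene called in both is therefore not called on separate evidence.

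ZNF268, a KRAB protein with 24 finger patterns, was lower in KO at 12 and 48 h. It read 3.28, 4.90 and 3.27 RPKM in untreated WT, 5.46, 7.61 and 5.39 at 12 h and 5.60, 6.84 and 4.79 at 48 h. In KO the values were 3.29, 2.87 and 3.26 RPKM untreated, 3.65, 2.40 and 3.38 at 12 h and 2.96, 3.31 and 2.75 at 48 h. After interferon every WT library lay above every KO library, while untreated libraries overlapped. The log2 differences of KO from WT were -0.79 at 12 h and -0.74 at 48 h (SE 0.157, limma adjusted p 0.00853 and 0.011), and -0.20 at 0 h (adjusted p 0.552). The 48 h call was lost without KO replicate 3 (adjusted p 0.0525) or WT replicate 2 (-0.63, adjusted p 0.0647), and the 12 h call in the fit on its 6 libraries alone (adjusted p 0.0887). ZNF268 rose by 0.57 in WT at 12 h (adjusted p 0.00743), and the interactions were -0.58 at 12 h and -0.54 at 48 h (adjusted p 0.773 and 0.76).

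ZNF134, a finger protein of chromosome 19, had the same pattern at smaller spread. WT libraries read 4.23, 4.02 and 4.02 RPKM untreated, 5.04, 5.54 and 5.02 at 12 h and 5.29, 5.91 and 5.05 at 48 h. KO libraries read 4.14, 3.91 and 3.93 RPKM, then 3.90, 4.09 and 4.20, then 3.63, 3.79 and 4.16. In WT the gene rose by 0.28 at 12 h and 0.33 at 48 h (SE 0.0698, limma adjusted p 0.00364 and 0.00447), and in KO it read 0.02 and -0.04 (adjusted p 0.84 and 0.77). KO differed from WT by -0.29 at 12 h and -0.40 at 48 h (adjusted p 0.0273 and 0.00256). The 12 h call was lost without any 1 of the 6 libraries of that comparison (adjusted p at most 0.111, without KO replicate 1). No single omission ended the 48 h call, but it was lost in the fit on the 6 libraries of that comparison alone (adjusted p 0.0894). The interactions of ZNF134 were -0.26 and -0.37 (adjusted p 0.769 and 0.441).

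ZNF766, a KRAB gene of chromosome 19, read 4.77, 4.75 and 4.79 RPKM in untreated WT and 6.59, 8.22 and 6.57 at 12 h. In KO it read 5.10, 5.15 and 4.96 RPKM untreated and 4.85, 4.58 and 5.74 at 12 h. The rise in WT was 0.49 (SE 0.0947, limma adjusted p 0.000611), and KO differed from WT by -0.42 at 12 h (adjusted p 0.0181). That difference was lost without KO replicates 1 or 2 (adjusted p 0.0787 and 0.0794) or WT replicate 2 (-0.33, adjusted p 0.0761). ZNF510, also a KRAB gene, was at 3.60, 3.65 and 3.90 RPKM in WT and 2.05, 2.75 and 2.02 in KO at 12 h, a difference of -0.53 (SE 0.122, adjusted p 0.0203). Its call was lost without KO replicates 1 or 3 or WT replicates 1 or 3 (adjusted p 0.0556 to 0.0919).

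At 48 h ZNF480 and ZNF320, 2 KRAB genes of chromosome 19, were lower in KO. ZNF480 read 13.29, 14.55 and 14.34 RPKM in WT and 8.88, 9.53 and 8.62 in KO, with no overlap and a difference of -0.59 (SE 0.151, limma adjusted p 0.0375). ZNF320 read 8.49, 6.61 and 9.24 RPKM in WT and 5.49, 4.44 and 5.88 in KO, a difference of -0.54 (SE 0.141, adjusted p 0.0429). ZNF587 was the 1 member higher in KO at 48 h, at 8.51, 9.84 and 9.21 RPKM against 7.77, 5.63 and 7.12 in WT (0.39, SE 0.101, adjusted p 0.0429). All 3 calls lay near the threshold: 7 of the 18 single-library omissions ended that of ZNF480 (adjusted p at most 0.124), 12 that of ZNF320 (at most 0.163) and 15 that of ZNF587 (at most 0.196). For ZNF480 these were the 6 libraries at 48 h, WT replicate 2 most of all, and WT replicate 3 at 12 h. For ZNF320 they were all but KO replicates 1 and 2 at 0 h and at 12 h and WT replicate 2 at 12 and 48 h, and for ZNF587 all but WT replicates 1 and 3 at 12 h and WT replicate 1 at 48 h. ZNF587 also fell at 12 h in WT, from 7.79, 7.51 and 8.19 to 5.09, 4.49 and 3.66 RPKM (-0.71, adjusted p 3.76e-05), and changed by -0.24 in KO (adjusted p 0.0659). In untreated cells it was lower in KO, at a mean of 6.78 against 7.83 RPKM with no overlap (-0.18, limma adjusted p 0.369).

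In untreated cells ZNF451, a SUMO ligase, was higher in KO, at 14.63, 14.25 and 13.69 RPKM against 11.01, 12.10 and 12.57 in WT (0.24, SE 0.059, limma adjusted p 0.0284). At 12 h its KO libraries read 10.73, 10.86 and 11.85 RPKM, within the range of WT at 10.64, 11.75 and 11.13 or just above it. ZNF330 read 36.94, 36.08 and 36.15 RPKM in KO and 30.75, 32.66 and 31.94 in WT at 0 h, a difference of 0.19 (adjusted p 0.0109). The genotypes did not overlap for either gene, which at 0 h held for 23.6% of all genes. ZNF814, a KRAB gene of chromosome 19, was lower, at 4.12, 5.55 and 6.42 RPKM against 9.72, 7.89 and 8.87 in WT (-0.64, SE 0.168, adjusted p 0.0381). Each of these 3 calls was lost without 1 or more single libraries. For ZNF451 these were KO or WT replicates 1 or 2 (at most 0.122), for ZNF330 KO or WT replicate 1 (0.0515 and 0.0548), and for ZNF814 any but KO replicate 3 (at most 0.173, without KO replicate 1).

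**Figure D4:**
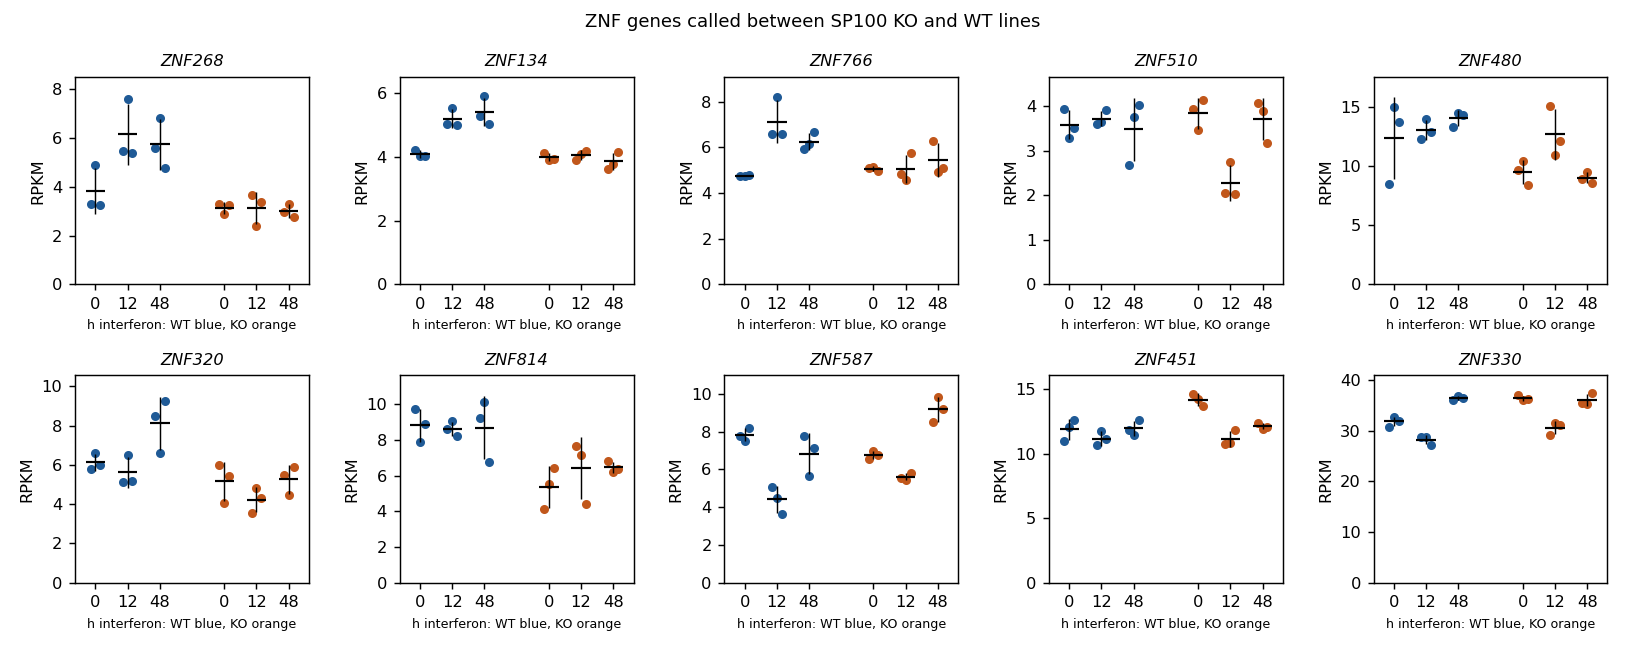
RPKM of the 10 ZNF genes called between KO (orange) and WT (blue) at any time, by hours of interferon, with points for libraries, horizontal bars for group means and vertical bars for SD (n = 3). ZNF268 and ZNF134 separate by genotype at 12 and 48 h and not at 0 h. At 0 h ZNF451, ZNF330 and ZNF814 separate, and so do ZNF766 and ZNF587, which were not called at that time.

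A single member stood apart in its spread. ZNF888, a KRAB gene of chromosome 19 with close relatives, ranged from 0.29 to 27.33 RPKM over the 18 libraries, a coefficient of variation of 176%. Its 3 KO libraries at 12 h read 27.33, 0.29 and 0.64 RPKM, those of KO at 48 h 0.63, 17.31 and 0.42, and those of untreated WT 0.39, 3.68 and 7.69. The replicates of KO at 12 h thus differed by more than any 2 group means. ZNF888 reached the mean of 3 RPKM only with the library at 27.33 RPKM, so its place among the members rests on that library. Its standard error of 1.13 was the largest of the members, followed by 0.216 for ZNF516, and it was called in no comparison. How reads were divided between ZNF888 and its relatives was not tested.

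Over all 11 comparisons 113 members were called at least once and 92 in none, 55.1% called against 67.1% of all 13280 genes. For interferon against untreated cells at some time in some genotype, 94 were called, 45.9% against 59.9%. The summed level of the 205 genes was 1990 ± 11.3 RPKM (SD, n = 3) in untreated WT. It was 1930 ± 25.0 RPKM after 12 h of interferon and 2080 ± 16.3 after 48 h. In KO it was 2020 ± 17.2, 1960 ± 36.5 and 2060 ± 14.0 RPKM. On the deposited scale the 12 h sums were the lowest of each genotype, but that order turned with median-of-ratios scaling. With it the sums were 1940 ± 2.1, 2020 ± 30.1 and 2040 ± 15.3 RPKM at 0, 12 and 48 h in WT, and 1950 ± 16.2, 2040 ± 19.8 and 2000 ± 9.76 in KO, so the untreated sums were the lowest.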

How the data were processed

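PolyA RNA of NIKS keratinocytes was sequenced from stranded libraries, per the labels' protocols. The authors deposited a table of RPKM values, 1 column per library, that names genes by Ensembl ID. The submitters' processing notes name cutadapt, STAR 2.6.1, RSEM 1.3.0, limma 3.50.3 and build hg19, with no role or order. The scaling to RPKM, the annotation and the strand setting are not given in the sources used here. The deposited values hold no read counts, so depth is unknown and no count test was run. RPKM also leaves shared reads of related ZNF copies unresolved.

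Of 16472 IDs, 15666 matched a symbol. Genes with at least 1 RPKM in 3 or more libraries (13280) were fitted as log2(RPKM + 1) with limma 3.58.1 in R 4.3.3, as 6 group means with a variance trend, and tested two-sided with Benjamini-Hochberg adjustment over all of them and a threshold of 0.05. A log2 change on this scale understates the change of low genes. The fit was tested on simulated data. With 3 libraries per group, alternatives were a pseudocount of 0.1, no filter, a mean of at least 5 RPKM, median-of-ratios scaling, the comparison's libraries alone, no variance trend, a replicate block and each library left out.

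Named genes were, among called members whose groups did not overlap, the 5 largest changes each way in WT at 12 and 48 h and the 3 largest from 12 to 48 h. They also took in members called between genotypes, the smallest interaction p, the 3 highest means and the listed roles. The members and lists were chosen with earlier results of these data known. KRAB and finger patterns were read from translated GENCODE 29 coding sequences, in place of a protein table, and promoters from RefSeq. The pattern definitions and the promoter letters were settled after the data had been seen.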

Additional observations from a re-analysis of the deposited data

How the results depend on the processing

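Of the member results named, 121 were followed over 2998 alternatives: 2742 kept direction and side of the threshold, 256 lost the call, 0 gained one and 0 turned in sign. All but the interactions of ZNF766 and ZNF813 were calls from the start, so only those could gain one. In 64 of the 121 no alternative ended a call, a count that includes these interactions, which had no call to lose. The cause of each loss was not tested. With the libraries of a comparison alone, the count of members called was 7 for KO at 48 h against untreated (14 in the report), 0 for KO against WT at 0 h (3), 0 at 12 h (4) and 2 at 48 h (5). A mean of at least 5 RPKM, which tests fewer genes, left 1 call for KO against WT at 12 h and 3 at 48 h, and no filter left 3 at 48 h.

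Leaving out 1 library gave counts of 43 to 65 (WT) and 51 to 68 (KO) at 12 h, 10 to 17 and 2 to 17 at 48 h, and 41 to 58 and 41 to 57 from 12 to 48 h. For KO against WT it gave 1 to 5, 1 to 5 and 1 to 4 at 0, 12 and 48 h, and 0 for both interactions. Replicate numbers did not pair the libraries: 45 pairs with the same number had a median r of -0.013 between their deviations from group means (-0.097 to 0.157), and 90 other pairs 0.008. With the replicate block 2 members were called for KO against WT at 48 h. The number of reads is unknown, so counting error could not be given for low members such as ZNF30.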
